A study of Homo sapiens with 6 samples.

Results

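Imprinted genes are expressed mainly from the copy inherited from one parent, and 10 of them were examined here for regions bound by the histone demethylase KDM3B and for regions carrying its substrate, histone H3 dimethylated at lysine 9 (H3K9me2). The genes were H19, IGF2, KCNQ1OT1, CDKN1C, GNAS, MEG3, PEG3, PEG10, MEST and SNRPN. They were chosen by name as members of well-known imprinted clusters, and all 10 were found among the 64449 genes of the annotation. None of the measurements below was used to choose them, although earlier results of these data were known when they were chosen.

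The measurements came from chromatin immunoprecipitation followed by sequencing (ChIP-seq) in HCT116, a human colorectal cancer cell line. HCT116/Scrsh cells expressed a scramble shRNA and served as the control, and HCT116/ABsh-1 cells expressed shRNA directed against KDM3A and KDM3B together. The sample labels name the groups control and knockdown and mention siRNA transfection, whereas the methods of the study describe stable shRNA lines, so the mode of depletion is given here as the methods have it. Each cell population gave 1 KDM3B ChIP, 1 H3K9me2 ChIP and 1 input library, 6 libraries in all, and the 4 ChIP libraries each gave 1 list of regions in which the ChIP signal passed a Poisson threshold over input. The methods ask for neighbouring windows of like significance, yet 41.3% to 72.9% of the regions of each list are a single 100-bp window, so the rule by which the deposited regions were formed is not fully known. The 2 input libraries were not analysed here. With 1 library per condition no difference between the cell populations could be tested, and the depth of the libraries is unknown, so every comparison below sets 1 list beside another.

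In an imprinted cluster a control region that is DNA-methylated on one parental copy directs which genes of the neighbourhood are active on each chromosome, often through a long non-coding RNA or through the insulator protein CTCF. H3K9me2 is a mark of repressed chromatin that KDM3A and KDM3B remove, and repressive histone marks and DNA methylation are known to occur together on the silent copy of several control regions. ChIP does not separate the parental copies, so a region below may come from either or from both.

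KDM3B regions within 5 kb of a start or in the body of the genes are shown first, because they are few and narrow and the findings on KDM3B turn on them. Those farther out in the flanks are not shown. Sequences are from the plus strand of hg19, 5′ to 3′. Capitals mark matches, on either strand, to the letters CCANNAGNNGG, which are taken from the core of the known CTCF motif and were chosen after these sequences had been read. A match is a description of the letters and not a binding site. The first 4 positions were in both lists, the next 2 lay within 5 kb of a start of CDKN1C and H19 in HCT116/Scrsh alone, and the last 3 were in the HCT116/ABsh-1 list alone. Left out at IGF2 are chr11:2173201-2173400, in both lists, and chr11:2171601-2171700, in HCT116/Scrsh alone, and neither held a match.
IGF2, both, chr11:2172801-2172900: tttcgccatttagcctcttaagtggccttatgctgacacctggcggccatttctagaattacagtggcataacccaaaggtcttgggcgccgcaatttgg
IGF2, both, chr11:2177801-2177900: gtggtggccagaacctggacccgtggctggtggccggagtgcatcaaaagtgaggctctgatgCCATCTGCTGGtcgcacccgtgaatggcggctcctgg
GNAS, both, chr20:57439601-57439700: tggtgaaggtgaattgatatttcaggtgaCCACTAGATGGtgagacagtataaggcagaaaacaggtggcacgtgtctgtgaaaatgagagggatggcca
MEG3, both, chr14:101317601-101317700: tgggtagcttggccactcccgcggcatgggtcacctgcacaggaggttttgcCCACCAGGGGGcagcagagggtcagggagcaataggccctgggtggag
CDKN1C, HCT116/Scrsh, chr11:2909701-2909900: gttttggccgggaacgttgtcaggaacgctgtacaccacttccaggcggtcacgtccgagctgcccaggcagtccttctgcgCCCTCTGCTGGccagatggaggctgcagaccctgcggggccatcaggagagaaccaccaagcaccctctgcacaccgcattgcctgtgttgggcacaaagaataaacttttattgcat
H19, HCT116/Scrsh, chr11:2020001-2020200: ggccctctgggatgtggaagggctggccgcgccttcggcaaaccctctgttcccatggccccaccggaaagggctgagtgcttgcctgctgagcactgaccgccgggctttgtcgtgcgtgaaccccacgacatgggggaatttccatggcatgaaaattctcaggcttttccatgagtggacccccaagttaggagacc
H19, HCT116/ABsh-1, chr11:2021101-2021200: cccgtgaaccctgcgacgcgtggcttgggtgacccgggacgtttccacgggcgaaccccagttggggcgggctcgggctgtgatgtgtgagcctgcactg
GNAS, HCT116/ABsh-1, chr20:57414601-57414700: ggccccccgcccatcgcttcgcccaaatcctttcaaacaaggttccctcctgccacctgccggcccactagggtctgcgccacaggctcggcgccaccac
PEG3, HCT116/ABsh-1, chr19:57320301-57320400: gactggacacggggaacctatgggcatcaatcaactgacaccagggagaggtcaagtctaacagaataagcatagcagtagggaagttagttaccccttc

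Next, 4 H3K9me2 windows in the genes are shown with each CpG dinucleotide, the target of DNA methylation, in capitals. The first 3 were in the lists of both cell populations, and the fourth is the H3K9me2 region of HCT116/ABsh-1 nearest to the KCNQ1OT1 start site.
GNAS, chr20:57415801-57415900: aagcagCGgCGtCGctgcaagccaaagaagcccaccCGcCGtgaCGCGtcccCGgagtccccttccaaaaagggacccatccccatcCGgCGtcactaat
GNAS, chr20:57429201-57429300: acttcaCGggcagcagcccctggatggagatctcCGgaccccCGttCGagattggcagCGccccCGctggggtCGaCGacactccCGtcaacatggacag
PEG10, chr7:94293601-94293700: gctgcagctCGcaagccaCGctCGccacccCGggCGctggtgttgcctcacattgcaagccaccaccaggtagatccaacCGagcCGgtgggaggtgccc
KCNQ1OT1, chr11:2720601-2720700: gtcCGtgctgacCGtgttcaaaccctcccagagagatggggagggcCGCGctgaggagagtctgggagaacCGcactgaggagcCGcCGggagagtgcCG

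The letters CCANNAGNNGG were more frequent in KDM3B regions than in H3K9me2 regions or the genome. Among the regions at the 10 genes they were found in 5 of 18 KDM3B regions in HCT116/Scrsh, 3 of 9 in HCT116/ABsh-1, 0 of 24 H3K9me2 regions in HCT116/Scrsh and, among the wider H3K9me2 regions of HCT116/ABsh-1, 58 of 338. The same held across the whole lists when only regions of 100 bp were compared. Of the KDM3B regions of this width, 1633 of 9483 (17.2%) held the letters in control cells and 969 of 4931 (19.7%) after KDM3A/B depletion. For the H3K9me2 lists the shares were 2.23% and 3.5%, and for all 28586281 assembled 100-bp tiles of the genome 1.56%. Of the 5 KDM3B regions of HCT116/ABsh-1 at these genes that overlapped one in HCT116/Scrsh, 3 held the letters, at IGF2, GNAS and MEG3. No test was made of these shares, because the letters were chosen after the sequences were seen. TGCCGC, known as the motif of ZFP57, a protein that protects imprints when its site is methylated, was found in 1 of 18, 1 of 9, 1 of 24 and 65 of 338 regions in the same order, against 7.53%, 7.94%, 4.9% and 13.4% of the whole lists. Among regions of 100 bp the whole-list shares were 3.66%, 4.2%, 2.69% and 4.45%, and 5 of 89 such H3K9me2 regions of HCT116/ABsh-1 at the 10 genes held it. Of the 100-bp genome tiles 0.723% did.

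Regions were assigned to a gene when they shared at least 1 base with the window of 5 kb on either side of any annotated transcription start site (TSS), with the gene body, or with the gene and 50 kb on both sides. Because several of these genes have many annotated starts (59 in GNAS, 34 in MEG3 and 24 in H19), their start-site windows were long, from 10022 bp at KCNQ1OT1 to 54053 bp at GNAS. The neighbourhoods of the 10 genes did not overlap each other. Downstream of MEST, 41783 bp of the neighbourhood are not assembled in hg19, which left 78512 bp in which a region could be found.

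KDM3B regions were few at the genes, and fewer in HCT116/ABsh-1, as in the whole lists. Within 50 kb of the genes HCT116/Scrsh had 18 KDM3B regions and HCT116/ABsh-1 had 9, a ratio of 0.5, beside a ratio of 0.456 for the whole lists (17638 and 8046 regions). They lay at H19, IGF2, CDKN1C, GNAS and MEG3 in HCT116/Scrsh and at H19, IGF2, GNAS, MEG3 and PEG3 in HCT116/ABsh-1. Start-site windows of 4 genes held a region in HCT116/Scrsh, where 18.3% of all annotated genes did, and those of 5 genes in HCT116/ABsh-1, where 9.87% did. Long windows catch more regions, and among genes with windows in the length range of the 10 genes 32.6% and 17.8% held one. Gene bodies held a region at 4 genes in each list (all genes, 15.2% and 8.27%; genes with bodies of similar length, 24.0% and 13.0%). Neighbourhoods of 50 kb held one at 5 genes in each (all genes, 55.8% and 37.3%; of similar length, 63.6% and 44.1%). When the HCT116/Scrsh list was reduced to its 8046 highest-scoring regions, so that both lists had equal size, 7 regions remained against 9, with 4 of the 7 at IGF2, 2 at CDKN1C, 1 at H19 and 0 at GNAS and MEG3. The lower number in HCT116/ABsh-1 was thus not seen at equal list size.

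H3K9me2 regions were more numerous and wider in HCT116/ABsh-1. Within 50 kb of the genes HCT116/Scrsh had 24 regions covering 3300 bp, whereas HCT116/ABsh-1 had 338 covering 153268 bp, which is 0.218% and 10.1% of the 1516428 bp examined. The ratio between the cell populations was 14.1 in number and 46.4 in bases, where the whole lists (11645 and 88855 regions) had ratios of 7.63 and 16.4. In the start-site windows alone 3 regions faced 71, and 300 bp faced 28312 bp. Start-site windows of 2 genes held a region in HCT116/Scrsh (all genes, 7.09%) and those of 8 genes in HCT116/ABsh-1 (all genes, 31.6%). Among genes with windows of similar length the shares were 9.81% and 46.4%. Gene bodies held a region at 3 and 8 genes (all genes, 8.05% and 25.7%), and genes with bodies of similar length in 11.2% and 40.4% of cases. Neighbourhoods held one at 7 and 9 genes (all genes, 33.5% and 63.4%), and those of similar length in 37.3% and 70.8% of cases. At equal list size, with the HCT116/ABsh-1 list reduced to its 11645 highest-scoring regions, 24 regions faced 90, and 3300 bp faced 90700 bp. Of these 90 regions, 24 lay at KCNQ1OT1, 22 at IGF2, 20 at H19, 13 at CDKN1C and 8 at MEG3. GNAS then had 3 against 5 in HCT116/Scrsh, which turned its direction, PEG10 had 0 against 3, and MEST and PEG3 had 0.

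**Figure D1:**
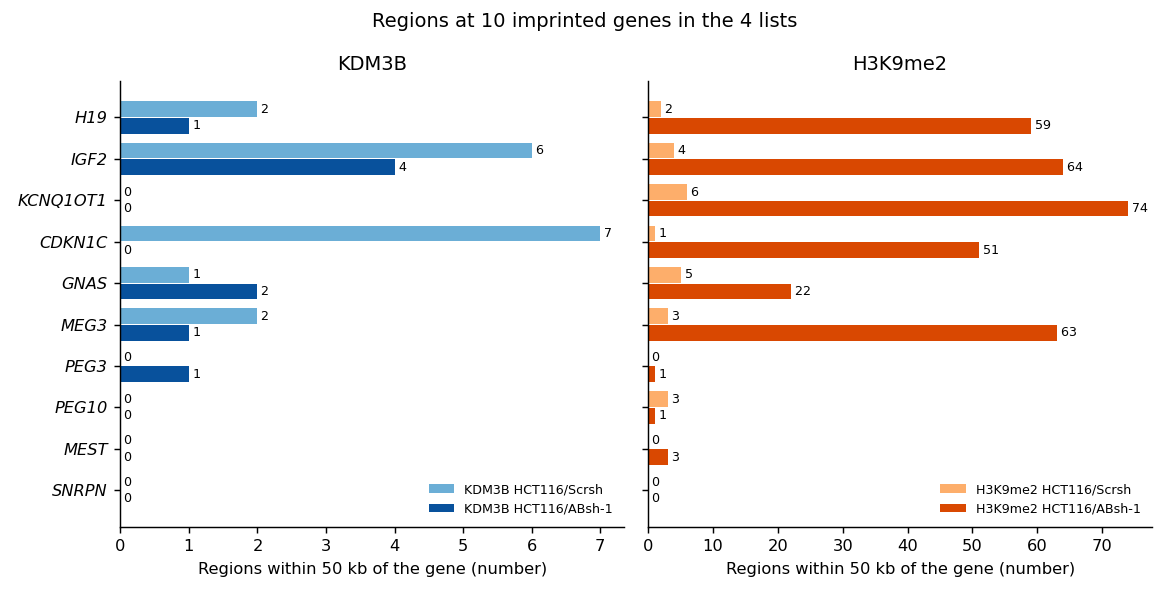
Horizontal bars give, for each of the 10 genes, the number of regions within 50 kb in the KDM3B lists (left) and the H3K9me2 lists (right) of HCT116/Scrsh (light) and HCT116/ABsh-1 (dark), 1 library each. CDKN1C had 7 KDM3B regions and then 0, while H3K9me2 regions in HCT116/ABsh-1 numbered 51 to 74 at H19, IGF2, KCNQ1OT1, CDKN1C and MEG3 and 0 to 3 at PEG3, PEG10, MEST and SNRPN.

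The genes fell apart in H3K9me2. In HCT116/ABsh-1, H3K9me2 regions covered 30.4% of the neighbourhood of H19, 28.2% of that of IGF2, 21.2% at CDKN1C, 16.1% at KCNQ1OT1, 11.3% at MEG3 and 4.49% at GNAS. At MEST, PEG10 and PEG3 the regions came to 700, 200 and 100 bp, and at SNRPN to 0. The first 4 genes share a stretch of the short arm of chromosome 11 that holds the imprinted H19/IGF2 and KCNQ1OT1/CDKN1C domains, so their values are not independent of one another. By the number of bases in the start-site window, MEG3 (10400 bp) exceeded 99.8% of all annotated genes, IGF2 (8321 bp) 99.7%, GNAS (3800 bp) 98.1% and H19 (3391 bp) 97.8%, a rank that also depends on the length of the windows.

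The H3K9me2 regions of HCT116/ABsh-1 at the 4 genes on chromosome 11 were also wide for the list, with a median of 300 bp at H19, IGF2 and KCNQ1OT1 and 400 bp at CDKN1C, against 200 bp in the whole list. At GNAS, MEG3, PEG10 and MEST the median was 200 bp, and the 1 region at PEG3 was 100 bp wide. Over the 10 genes 26.3% were single 100-bp windows, against 41.3% in the whole list. Each region carries a whole-number score that the files leave unnamed and that serves here only to rank regions within a list. Of the 338 regions, 221 lay above the list's median score. Regions of at least 1 kb numbered 42, of which 15 were at IGF2, 12 at H19, 8 at KCNQ1OT1 and 5 at CDKN1C.

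**Figure D2:**
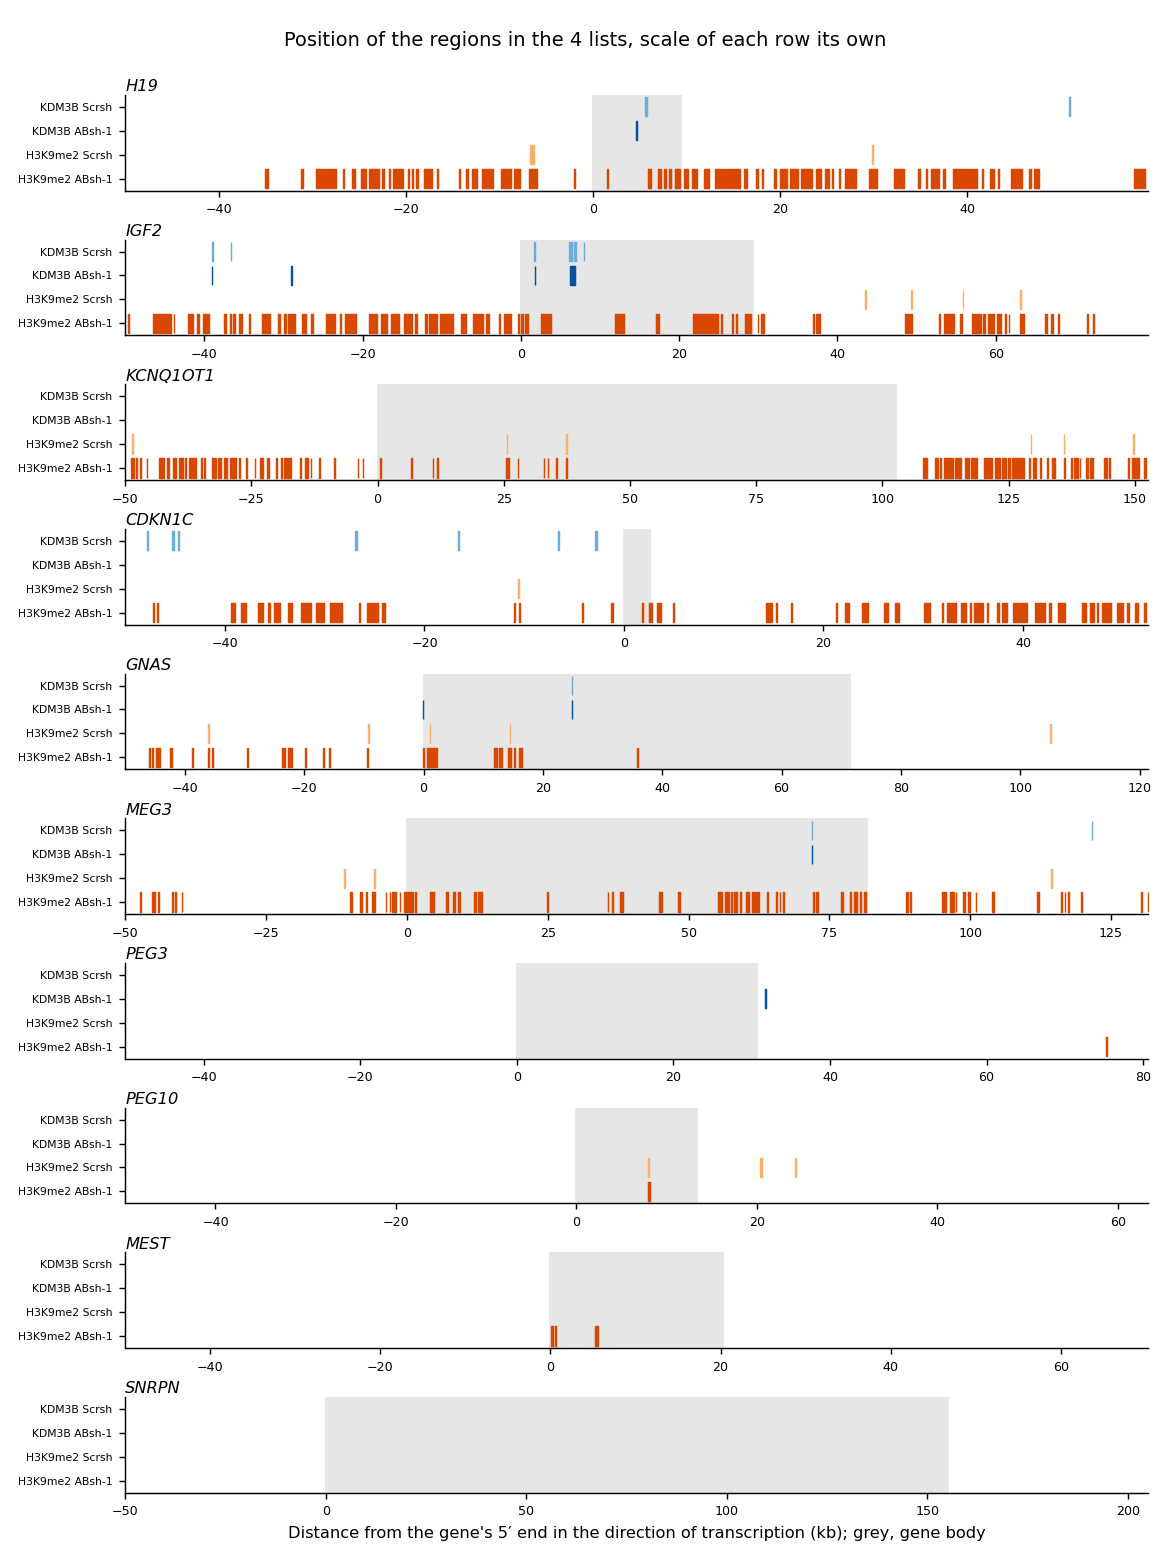
Each panel maps 1 gene (grey, gene body) and 50 kb on either side, with distance from the gene's 5′ end in kb in the direction of transcription; each mark is a region of the list named at the left, and the narrowest marks are drawn wider than their 100 bp. H3K9me2 of HCT116/ABsh-1 covers 25.2% and 37.4% of the flanks of KCNQ1OT1 and 1.36% of its body, and SNRPN is empty in all 4 lists.

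H19 encodes a long non-coding RNA of the maternal copy, and the control region that it shares with IGF2 lies just upstream of its main promoter. Of its 31 annotated transcripts 13 start within 200 bp of chr11:2019072, and distances are given from there to the centre of a region. The KDM3B region of HCT116/Scrsh lay 1029 bp upstream of this start (chr11:2020001-2020200, score 27), and that of HCT116/ABsh-1 was another region, 2079 bp upstream (chr11:2021101-2021200, score 13). The second sequence held 10 CpG in 100 bp. H3K9me2 was not found in the gene or its start-site window in HCT116/Scrsh, whereas HCT116/ABsh-1 had 11 regions there (3391 bp, 18.6% of the window). Both KDM3B regions lay in a stretch of 4300 bp without H3K9me2 (chr11:2019901-2024200), flanked by H3K9me2 regions 679 and 5179 bp upstream of the main start. Any KDM3B region that overlaps no H3K9me2 lies in such a stretch by construction. Stretches that held neither were nearby too, between chr11:2024300 and chr11:2027701 and between chr11:2027800 and chr11:2031801. The KDM3B region of HCT116/Scrsh began at chr11:2020001, close to an H3K9me2 region that ended at chr11:2019900. The widest region of the neighbourhood, 2700 bp with a score of 631, lay downstream of the gene (chr11:2010001-2012700).

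IGF2 encodes insulin-like growth factor 2, a fetal growth factor expressed from the paternal copy. It had the most KDM3B in its start-site window of the 10 genes. In HCT116/Scrsh there were 4 regions, of 100, 200, 400 and 200 bp, and in HCT116/ABsh-1 there were 2, of 600 and 100 bp. The region of 600 bp (chr11:2172801-2173400, score 80) overlapped those of 200 and 400 bp, and the region of 100 bp lay inside the last (chr11:2177801-2178000). The score of 92 of the 400-bp region was at percentile 94.2 of its list, and the score of 80 at percentile 96.0 of the other. Tied scores were given their mean rank. These positions lie within the gene as annotated but upstream of its canonical transcript, and the 3 of the central group are 842 to 2592 bp upstream of the nearest annotated start. In bases, the IGF2 window exceeded 99.5% of all genes in HCT116/Scrsh (900 bp) and 99.8% in HCT116/ABsh-1 (700 bp). That rank also depends on the length of the window, 31105 bp at IGF2.

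In the start-site window of IGF2, as in that of H19, no KDM3B region overlapped an H3K9me2 region. Such overlap was rare in the whole lists too. There 0.533% of KDM3B regions of HCT116/Scrsh and 1.18% of those of HCT116/ABsh-1 overlapped H3K9me2 of HCT116/ABsh-1. HCT116/Scrsh had no H3K9me2 region in the start-site window or the gene body, and its 4 regions in the neighbourhood were all downstream. HCT116/ABsh-1 had 12 regions in the window (8321 bp, 26.8%). The widest at any of the 10 genes, 3200 bp with a score of 563 (chr11:2154701-2157900), lay in intron 2 of the canonical transcript at its middle, and 3 of the 10 annotated starts were inside a region. The central KDM3B group lay in a stretch of 8100 bp without H3K9me2 (chr11:2167701-2175800) and the region at chr11:2177801 in one of 1600 bp. Stretches that held neither were found here too, as between chr11:2157900 and chr11:2162201. The upstream flank, which holds INS, the insulin gene, was covered to 42.0% and the downstream flank to 15.4%.

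**Figure D3:**
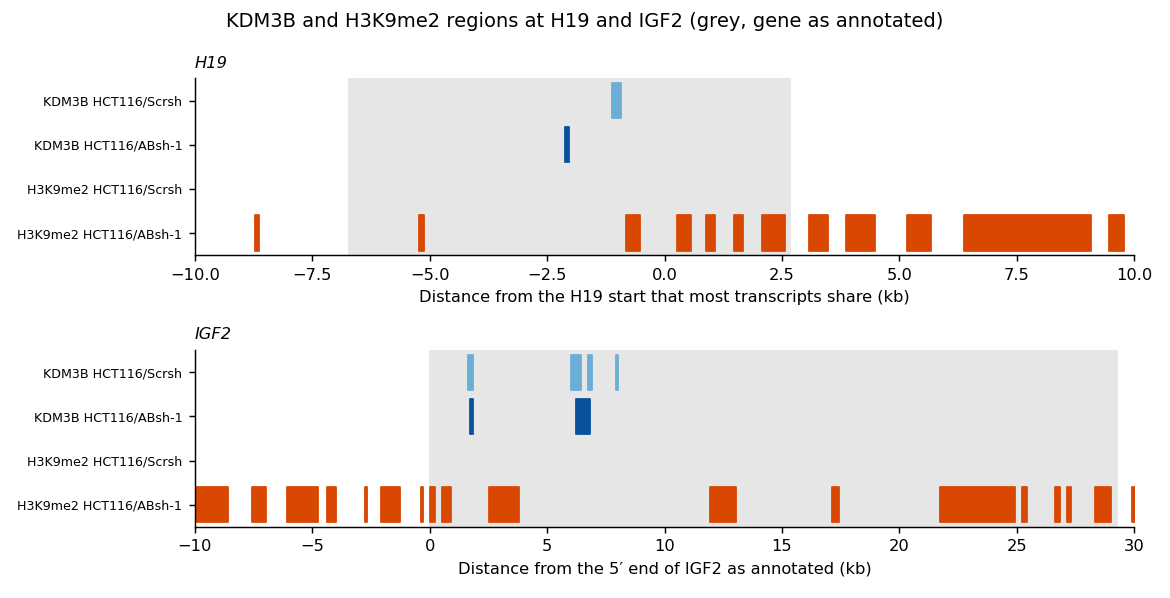
Regions of the 4 lists at H19 (top; distance in kb from the start that most transcripts share) and IGF2 (bottom; distance in kb from the annotated 5′ end), drawn to scale along the direction of transcription, with the annotated gene in grey. The KDM3B regions drawn, all of them in start-site windows, sit in stretches of 4300 bp at H19 and of 8100 and 1600 bp at IGF2 that hold no H3K9me2 region. Other stretches hold neither, as between chr11:2024300 and chr11:2027701 at H19 and between chr11:2157900 and chr11:2162201 at IGF2. In the whole lists 0.533% (HCT116/Scrsh) and 1.18% (HCT116/ABsh-1) of KDM3B regions overlapped H3K9me2 of HCT116/ABsh-1.

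KCNQ1OT1 is a long non-coding RNA of the paternal copy, transcribed antisense to the potassium channel gene KCNQ1 from a control region in one of its introns, and CDKN1C, a cyclin-dependent kinase inhibitor, is among the genes it silences. No KDM3B region lay within 50 kb of KCNQ1OT1 in either list. HCT116/Scrsh had 6 H3K9me2 regions and HCT116/ABsh-1 had 74. The whole neighbourhood lies inside the body of KCNQ1 (chr11:2465884-2870335), so every region counted here does too. The 74 were placed unevenly: the body of KCNQ1OT1 (102696 bp) was covered to 1.36%, the upstream flank to 25.2% and the downstream flank to 37.4%. The body also had a lower GC content, 43.2% against 57.4% and 56.2%. In 1-kb bins of 50 to 60% GC the cover was 4.58% in the body (24 bins), 21.8% upstream (33 bins) and 26.7% downstream (12 bins). The part of base composition in the difference between body and flanks was not tested. At the start site itself, where all 14 transcripts begin, 1 region of 100 bp lay within 1 kb, 573 bp downstream of the start that most transcripts share.

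CDKN1C had the largest difference in number of KDM3B regions. HCT116/Scrsh had 7 regions upstream of it, 1 of them in the start-site window (chr11:2909701-2909900, 2796 bp upstream, score 46), and HCT116/ABsh-1 had 0. Of the other 6, 2 lay in the body of SLC22A18, an organic cation transporter gene, and 3 lay within 5 kb of a start of PHLDA2, a growth-restraining gene of the placenta that is named here after its values were seen. Of the 7, 2 remained when the HCT116/Scrsh list was reduced to the size of the other. H3K9me2 numbered 1 region in HCT116/Scrsh, 10546 bp upstream, and 51 in HCT116/ABsh-1. The window held 6 of them (1200 bp, 10.8%), and none lay within 1 kb of the starts at the 5′ end that 6 of its transcripts use. The flanks were covered to 15.6% upstream and 27.5% downstream.

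GNAS encodes the stimulatory G protein alpha subunit and, from starts farther upstream, the NESP55 and XLαs proteins, whose promoters are imprinted in opposite directions. Of 22 H3K9me2 regions in HCT116/ABsh-1, 7 lay in the start-site windows, 1 of 100 bp elsewhere in the gene body and 14 in the upstream flank. H3K9me2 covered 1900 bp within 1 kb of the most upstream starts (14 transcripts from chr20:57414773-57416709) and 1053 bp around the next large group (9 transcripts from chr20:57427769-57428321). It was not found within 1 kb of the 17 transcripts that start at chr20:57463468-57464936 or the 15 that start at chr20:57466357-57468155, where the canonical transcript begins, nor at any start downstream of these. The 50 kb downstream of the gene held 0 bp, and the 50 kb upstream 3972 bp (7.94%). In HCT116/Scrsh, 2 single windows (scores 15 and 9) lay at the same 2 upstream groups, and both overlapped a region of HCT116/ABsh-1, of 1700 and 400 bp.

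KDM3B at GNAS was found in a single window in both lists (chr20:57439601-57439700, scores 15 and 11), between the upstream starts and the downstream ones and in a stretch of 19300 bp without H3K9me2. HCT116/ABsh-1 had a second window 123 bp upstream of the first start (chr20:57414601-57414700, score 10), which lay inside an H3K9me2 region of the same cells. Of the 27 KDM3B regions at the 10 genes, counting both lists, this and 1 in the upstream flank of IGF2 (chr11:2208601-2208700, score 6) were those that overlapped an H3K9me2 region of HCT116/ABsh-1 (0 of 18 and 2 of 9). In the whole lists 0.533% and 1.18% of KDM3B regions did so.

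MEG3 is a maternally expressed long non-coding RNA of the DLK1 domain on chromosome 14. KDM3B was found in both lists at a single window in the gene (chr14:101317601-101317700), with scores of 26 and 8. A further region of HCT116/Scrsh lay in the bodies of RTL1, a retrotransposon-derived gene, and MEG8, a non-coding RNA. H3K9me2 was absent from the start-site windows and the body in HCT116/Scrsh, with 3 regions in the flanks. In HCT116/ABsh-1 there were 63, of which 28 were in the windows (10400 bp, 20.2%). Around the start that most transcripts share, a group of 27 transcripts from chr14:101292435-101292532, no region lay within 1 kb. The most upstream start, used by 1 transcript, was inside a region of 1600 bp (chr14:101245201-101246800, score 299). H3K9me2 came to within 100 bp of the KDM3B window on one side, and the stretch without it was 5100 bp.

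PEG3, PEG10, MEST and SNRPN are paternally expressed and lie on chromosomes 19, 7, 7 and 15. PEG3, a zinc-finger protein gene, had 1 KDM3B window in HCT116/ABsh-1 in the body of its neighbour ZIM2. Its score of 5 was at percentile 0.317 of the list, with tied scores given their mean rank. PEG3 had no H3K9me2 in the gene in either list. That KDM3B window lay in a stretch of 353500 bp without H3K9me2 in HCT116/ABsh-1. PEG10, a retrotransposon-derived gene, was the only one of the 10 with more H3K9me2 regions in HCT116/Scrsh (3) than in HCT116/ABsh-1 (1). The one in its second exon, in coding sequence (chr7:94293601-94293700), was in both lists and 200 bp wide in HCT116/ABsh-1. MEST, a hydrolase-like gene, had 0 H3K9me2 regions in control cells against 3 after depletion, of 200, 100 and 400 bp, each within 1 kb of an annotated start. SNRPN, whose promoter belongs to the control region of the Prader-Willi and Angelman domain, had no region of any list within 50 kb (255087 bp). Low cover in these 4 genes went with low GC content, 36.9 to 42.9% over the assembled neighbourhood, against 46.3 to 59.7% in the other 6.

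**Figure D4:**
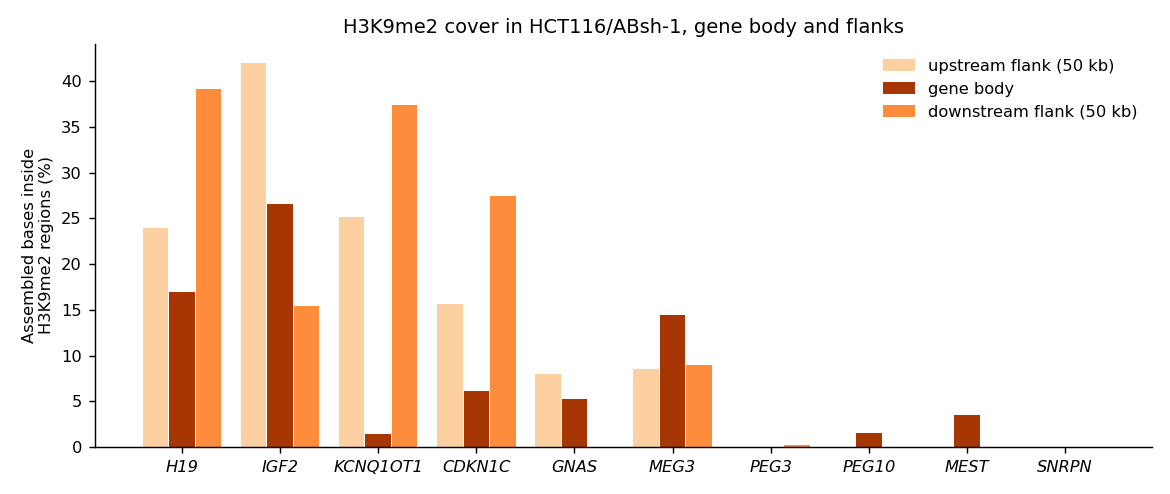
Bars give the percentage of assembled bases inside H3K9me2 regions of HCT116/ABsh-1 in the gene body and in the 50 kb upstream and downstream of each gene, 1 library. KCNQ1OT1 had 1.36% in its body and 25.2% and 37.4% in its flanks, whereas MEG3 had 14.4% in its body and 8.49% and 8.94% in its flanks.

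Base composition moved with H3K9me2 in HCT116/ABsh-1 across the whole genome, and its part in the values at the 10 genes was not tested. Over all 1-kb bins free of unassembled bases, H3K9me2 of HCT116/ABsh-1 covered 0.00687% below 40% GC, 0.184% from 40 to 50%, 5.19% from 50 to 60% and 21.9% at 60% or more. The neighbourhoods of the 10 genes had 18.8% of their bins in the last class, against 1.91% of the genome. Within each class from 40% GC upwards the 10 genes pooled were above the genome, with 0.591%, 13.2% and 38.9%. This did not hold gene by gene. From 40 to 50%, H19, PEG3, PEG10, MEST and SNRPN had 0%. From 50 to 60%, PEG3 had 0.909% (11 bins) and MEST and SNRPN had 0% (3 and 6 bins), whereas H19 had 6.47% (17 bins) and PEG10 6.67% (3 bins). IGF2, KCNQ1OT1, CDKN1C, GNAS and MEG3 were above the genome in both classes. In the class of 60% or more, KCNQ1OT1 had 49.5% (41 bins), IGF2 41.5% (68 bins), H19 40.9% (78 bins), GNAS 35.8% (12 bins), CDKN1C 32.5% (55 bins) and MEG3 29.3% (14 bins). PEG3, PEG10 and SNRPN, with 3, 2 and 1 such bins, had 0%, and MEST had 35.0% in 2 bins. In HCT116/Scrsh the same class had 0.511% over the genome and 0.616% at the 10 genes. Only uniquely mapped reads were kept by the authors, so repeats are under-represented in all 4 lists; the part of this in the empty stretches was not tested.

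**Figure D5:**
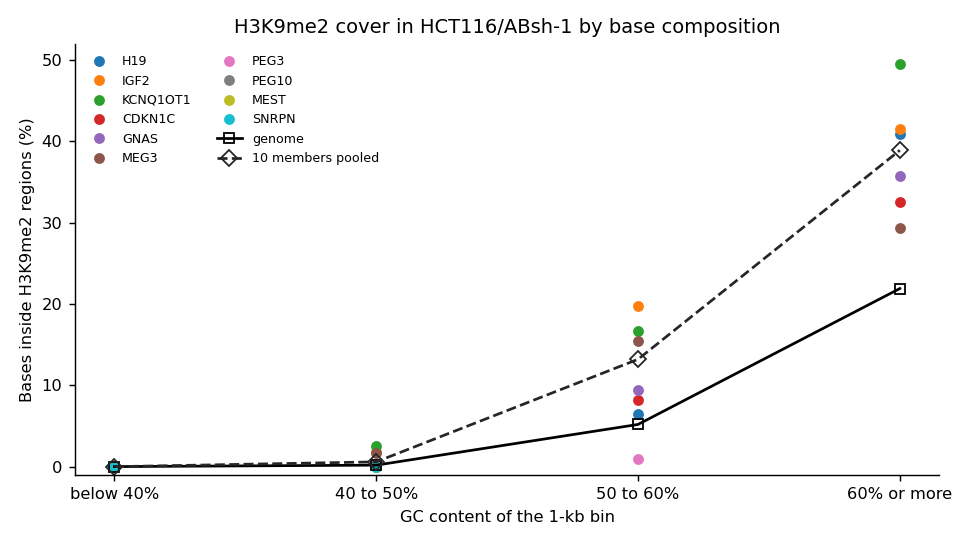
The percentage of bases inside H3K9me2 regions of HCT116/ABsh-1 is plotted against the GC class of 1-kb bins for the genome (squares, solid line), the 10 genes pooled (diamonds, dashed line) and single genes with at least 10 bins in a class (points). In bins of 60% GC or more the 6 plotted genes lie between 29.3% and 49.5% and the genome at 21.9%.

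The overlap between the cell populations depended on which list was counted. Of the 24 H3K9me2 regions of HCT116/Scrsh at the genes, 15 (62.5%) overlapped a region of HCT116/ABsh-1, against 35.4% in the whole list. Seen from the other side these were 15 of 338 regions (4.44%), and 4.47% in the whole list. For KDM3B, 6 of 18 regions of HCT116/Scrsh (33.3%; whole list 25.7%) and 5 of 9 of HCT116/ABsh-1 (55.6%; whole list 56.4%) overlapped the other list, values near those of the lists as a whole.

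For a list of 49 further genes, chosen by name as imprinted, the start-site windows alone were examined. Imprinting was not measured in these cells. Start-site windows of 14 held a KDM3B region in control cells and of 8 after depletion (28.6% and 16.3%; all genes, 18.3% and 9.87%). An H3K9me2 region was found at 11 and 33 (22.4% and 67.3%; all genes, 7.09% and 31.6%). Many of the 49 also have long windows, up to 248728 bp at SNHG14. Among genes with windows in the length range of the 10 genes, the shares were 32.6% and 17.8% for KDM3B and 9.81% and 46.4% for H3K9me2. The KDM3B shares of the 49 were not above these. The windows of the 49 ran from 10001 bp, as at PHLDA2, to 248728 bp, so this comparison is not matched to their lengths. Of these genes 8 share a window with one of the 10. The other 41 gave 13 and 6 for KDM3B and 10 and 29 for H3K9me2. Some regions of these 41 were also counted in the neighbourhoods of the 10, as at SLC22A18 and PHLDA2, so the sets are not independent. By bases summed over the 4 lists the leading 12 were TP73, OSBPL5, KCNQ1, SLC22A18, DIO3, WT1, INS, GNAS-AS1, MEG9, FAM50B, BLCAP and IGF2-AS. That order also depends on window length. As a share of the window, H3K9me2 of HCT116/ABsh-1 was higher at DIO3 (48.4%), INS (38.0%) and KCNQ1 (33.8%) than at TP73 (25.6%) and OSBPL5 (19.9%). H3K9me2 in HCT116/ABsh-1 made up most of each sum except that of BLCAP, with 11700 bp at TP73, a p53 family gene, 11200 bp at OSBPL5, an oxysterol-binding protein gene, 10513 bp at KCNQ1 and 5500 bp at DIO3, the thyroid hormone-inactivating deiodinase of the MEG3 domain. BLCAP, a gene of the NNAT domain, had 400 bp of KDM3B in each list beside 800 bp of H3K9me2 in HCT116/ABsh-1. In the Prader-Willi and Angelman domain, the start-site windows of SNURF, NPAP1, ATP10A and SNHG14 held no region of any list, UBE3A had 2 KDM3B regions in HCT116/Scrsh alone, MKRN3 had 1 in each KDM3B list, and MAGEL2 and NDN had 300 and 200 bp of H3K9me2 in HCT116/ABsh-1.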

How the data were processed

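The deposited files are 4 lists of regions, 1 per ChIP library, with chromosome, start, end, a name and a whole-number score whose meaning the authors' files do not give. Per the methods of the study, 50-bp reads were aligned with Bowtie (version not given in the sources used here) to hg19, unique reads were kept once per position, and 100-bp windows were called by Poisson enrichment over input when neighbouring windows were significant too. The deposited lists nevertheless hold many single windows, so regions of at least 200 bp were run as an alternative. Read depth is not given, list size can depend on it, and precision cannot be stated.

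Regions were intersected with GENCODE release 44 mapped to GRCh37, using any overlap of at least 1 bp, with Python 3.11.15, numpy 2.4.6, pandas 2.3.3 and pysam 0.24.0. A gene was counted once however many regions it held. Cover is the number of bases inside regions. The intersection code was tested on simulated intervals. The 10 genes, the 49 further genes and the alternatives were chosen with earlier results of these data known. The genes named are the 10, those of the 49 with the most covered bases (up to 12, with a region at a start), and listed genes whose bodies held a region of a flank. UBE3A, MKRN3, NDN, MAGEL2, SNURF, NPAP1, ATP10A, SNHG14 and PHLDA2 were named after their values were seen. Alternatives were the higher-scoring 50% of regions, merging, equal list sizes, region centres, canonical transcripts, and other widths of regions, windows and flanks.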

Additional observations from a re-analysis of the deposited data

How the results depend on the processing

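Over the 10 genes together, H3K9me2 was higher in HCT116/ABsh-1 in each alternative run, while at equal list size GNAS (5 against 3 regions) and PEG10 (3 against 0, and 3 against 1 as reported) were lower, and the direction for KDM3B was not as steady. No paired analysis was possible because each condition had 1 library and the labels carry no replicate numbers. Values below are given as HCT116/Scrsh against HCT116/ABsh-1.

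For genes with a KDM3B region at a start (4 against 5 as reported), the numbers became 4 against 1 with the higher-scoring 50% of regions, 3 against 1 with regions of at least 200 bp, 1 against 1 with canonical transcripts only and 2 against 3 with windows of 2 kb. For H3K9me2 (2 against 8) they became 1 against 7, 0 against 7 and 0 against 6 in the first 3 of these, 4 against 8 with windows of 10 kb, and 2 against 4 at equal list size.

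KDM3B regions within 50 kb (18 against 9) became 9 against 1 with the higher-scoring 50%, 8 against 1 with regions of at least 200 bp, 10 against 7 with flanks of 20 kb and 7 against 9 at equal list size, where the direction turned. The bases (2800 against 1400) became 1900 against 600, 1800 against 600, 1700 against 1200 and 1600 against 1400. H3K9me2 regions (24 against 338) became 10 against 221, 6 against 249, 13 against 174 and 24 against 90, and 24 against 136 with regions less than 1 kb apart merged. Their bases (3300 against 153268) became 1900 against 138800, 1500 against 144400, 2000 against 75013, 3300 against 90700 and 3300 against 259647. Of all the values from the alternatives, 61 stayed within 1.5 times those reported and 35 did not. Some of these shifts follow from the construction of the alternative, which keeps fewer regions or a shorter stretch; beyond that the cause was not tested.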
